A study of Mus musculus with 2 samples.

Results

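The genes Gata3, Gata2 and Gata1 encode GATA zinc-finger transcription factors of blood cells, and Zfpm1 encodes FOG-1, a protein that binds GATA factors. These 4 genes were picked by symbol from the 22032 rows of a single-cell count table of embryonic mouse thymus. They were followed across barcodes that carry the transcripts of 6 gene pairs, each pair marking a cell type, and across the suffixes of the barcodes. The study sorted DN1 cells, the earliest CD4- CD8- thymocyte gate, from the embryonic thymus of 5x polychromILC mice. One labelled sample is E15.5_DN1 and the other E19.5_DN1. Both samples thus share the strain, whose cells report several lymphoid loci at once, and differ in the labelled stage. In this strain human CD2, the row hCD2 of the table, is a reporter of the Gata3 locus. Barcodes carry suffix 1 or suffix 2, and no label ties a suffix to a stage. Stages were therefore not compared, and the table was treated as 1 pooled sample with the suffixes given side by side. How many embryos were pooled is not given in the sources used here.

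GATA factors recognise the GATA motif in DNA, and different members act in different blood lineages. GATA3 is needed for T cell commitment and for type 2 innate lymphoid cells (ILC2), GATA2 for early progenitors, mast cells and basophils, and GATA1 for red cells, megakaryocytes, mast cells and eosinophils. FOG-1 does not replace the DNA contact but joins a GATA factor to corepressors such as the NuRD and CtBP complexes. It is required with GATA1 in red cell and megakaryocyte development, and in mouse progenitors its presence is known to hold back the mast cell fate.

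On GRCm38 the members lie on 4 chromosomes. Gata3 lies at chr2:9857078-9890034 on the minus strand and Gata1 at chrX:7959260-7978071 on the minus strand. Gata2 lies at chr6:88193891-88207032 and Zfpm1 at chr8:122282141-122337251, both on the plus strand. Gata3 overlaps 4930412O13Rik on the other strand, which had 7 UMIs, and 9230102O04Rik on its own strand, which had 12. It also overlaps Gm13256 on the other strand, which is not among the counted genes. The part of the Gata3 count that lies in these overlaps was not tested. RefSeq promoters (GRCm38.p6) were matched for 4 of 4 members, 5 promoters in all since Gata2 has 2. The 250 bases before the start site are shown for the member seen in most barcodes and for one seen in few, with each CpG dinucleotide in capitals. The Gata3 stretch (chr2:9878601-9878850, minus strand) and the Gata1 stretch (chrX:7967911-7968160, minus strand) both lie within the longer gene models given above, before an internal start site.
Gata3: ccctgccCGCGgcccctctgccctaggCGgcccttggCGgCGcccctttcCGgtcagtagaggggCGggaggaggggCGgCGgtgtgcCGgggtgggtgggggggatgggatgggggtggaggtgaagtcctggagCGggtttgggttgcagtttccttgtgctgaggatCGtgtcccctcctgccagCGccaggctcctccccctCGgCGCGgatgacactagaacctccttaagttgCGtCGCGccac
Gata1: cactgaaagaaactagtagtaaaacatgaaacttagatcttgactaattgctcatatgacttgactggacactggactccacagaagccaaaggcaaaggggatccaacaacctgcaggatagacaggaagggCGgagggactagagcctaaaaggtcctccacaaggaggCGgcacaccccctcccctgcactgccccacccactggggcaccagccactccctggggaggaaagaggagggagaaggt
The Gata3 stretch held 19 CpG at 70% G and C, and the Gata1 stretch 2 at 54%. Those of Gata2 held 22 and 24 and that of Zfpm1 held 28, against a median of 6 over 32851 promoters of the same length. GATA sites were searched on both strands in the form AGATAA, in the form AGATAG, in the form TGATAA and in the form TGATAG. These letters occurred in 0 of the 5 member promoters and in 26.5% of all promoters, which says only that they are not in this window.

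The table held 2182 barcodes of suffix 1 and 3875 of suffix 2, of which 25 barcode sequences occurred under both. After the filters 5412 barcodes were kept, 2137 and 3275, with 39767463 and 59222697 UMIs (unique molecular identifiers, each standing for 1 captured transcript). Kept barcodes held 713 to 113167 UMIs. Levels are given as CPM, the UMIs of a gene scaled to all UMIs of a group, with exact Poisson 95% intervals. Ratios carry conditional exact intervals and shares Clopper-Pearson ones. There were no replicates and no test was run, so every interval covers counting error only. CPM is not scaled to transcript length, so levels are compared between groups for 1 gene and not between genes.

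A barcode passed a gate with at least 2 UMIs of each of its genes, with Cd3g set at 5, and belonged to a gate when it passed that gate alone. The progenitor gate (Spi1 and Bcl11a) held 832 barcodes, the ILC2 gate (Icos and Rora) 985, the NK/ILC1 gate (Xcl1 and Nkg7) 1382, the gamma-delta T gate (Cd3d and Sox13) 45 and the DN2/DN3 gate (Cd3g and Myb) 205. A further 72 barcodes passed both the gamma-delta T and the DN2/DN3 gate. The mast gate (Ms4a2 and Fcer1a, chains of the IgE receptor) held 3. A wide mast gate was therefore added after the data were seen, for barcodes with at least 2 UMIs of that pair summed and no other gate, and it held 40, the 3 among them. Markers other than the gate genes were checked against all other kept barcodes. Of these, 6 of 8 were at least 2-fold higher in the progenitor gate, 6 of 7 in the ILC2 gate, 8 of 8 in the NK/ILC1 gate, 7 of 8 in the DN2/DN3 gate, 4 of 5 in the gamma-delta T gate and 6 of 6 in the wide mast gate. Markers of other types were also higher in places, with 4 of 7 tested DN2/DN3 markers in the gamma-delta T gate and 4 of 5 myeloid markers in the wide mast gate. Cd8b1, a CD8 chain gene, had 198 CPM in suffix 2 of the DN2/DN3 gate and 0 in suffix 1. Median depth was 32661.5 UMIs in the progenitor gate and 32756 in the DN2/DN3 gate, but 13309 in the ILC2 gate, 11309.5 in the NK/ILC1 gate and 7155.5 in the wide mast gate. For shares, each barcode was thinned to 5000 UMIs.

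Gata3 was the member seen in most barcodes, with 7495 UMIs in 2952 barcodes (54.5%). Its level was 184 CPM in the ILC2 gate (177 to 191, 2712 UMIs) and 143 CPM in the gamma-delta T gate (117 to 173, 103 UMIs). The barcodes that passed both the gamma-delta T and the DN2/DN3 gate had 127 CPM (111 to 146). The DN2/DN3 gate had 58.1 CPM (52.5 to 64.0), the NK/ILC1 gate 37.1 CPM (34.3 to 40.1) and the progenitor gate 28.5 CPM (26.6 to 30.6). Gata3 was thus highest where ILC2 and gamma-delta T genes were present, lower in DN2/DN3 barcodes and lower again in NK/ILC1 and progenitor barcodes. In that order the gamma-delta T barcodes could not be separated from those that passed both T cell gates, with a log2 ratio of 0.17 (-0.19 to 0.51). The wide mast gate had 14.1 CPM (5.16 to 30.6), from 6 UMIs in 2 of 40 barcodes, and could not be separated from progenitors.

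**Figure D1:**
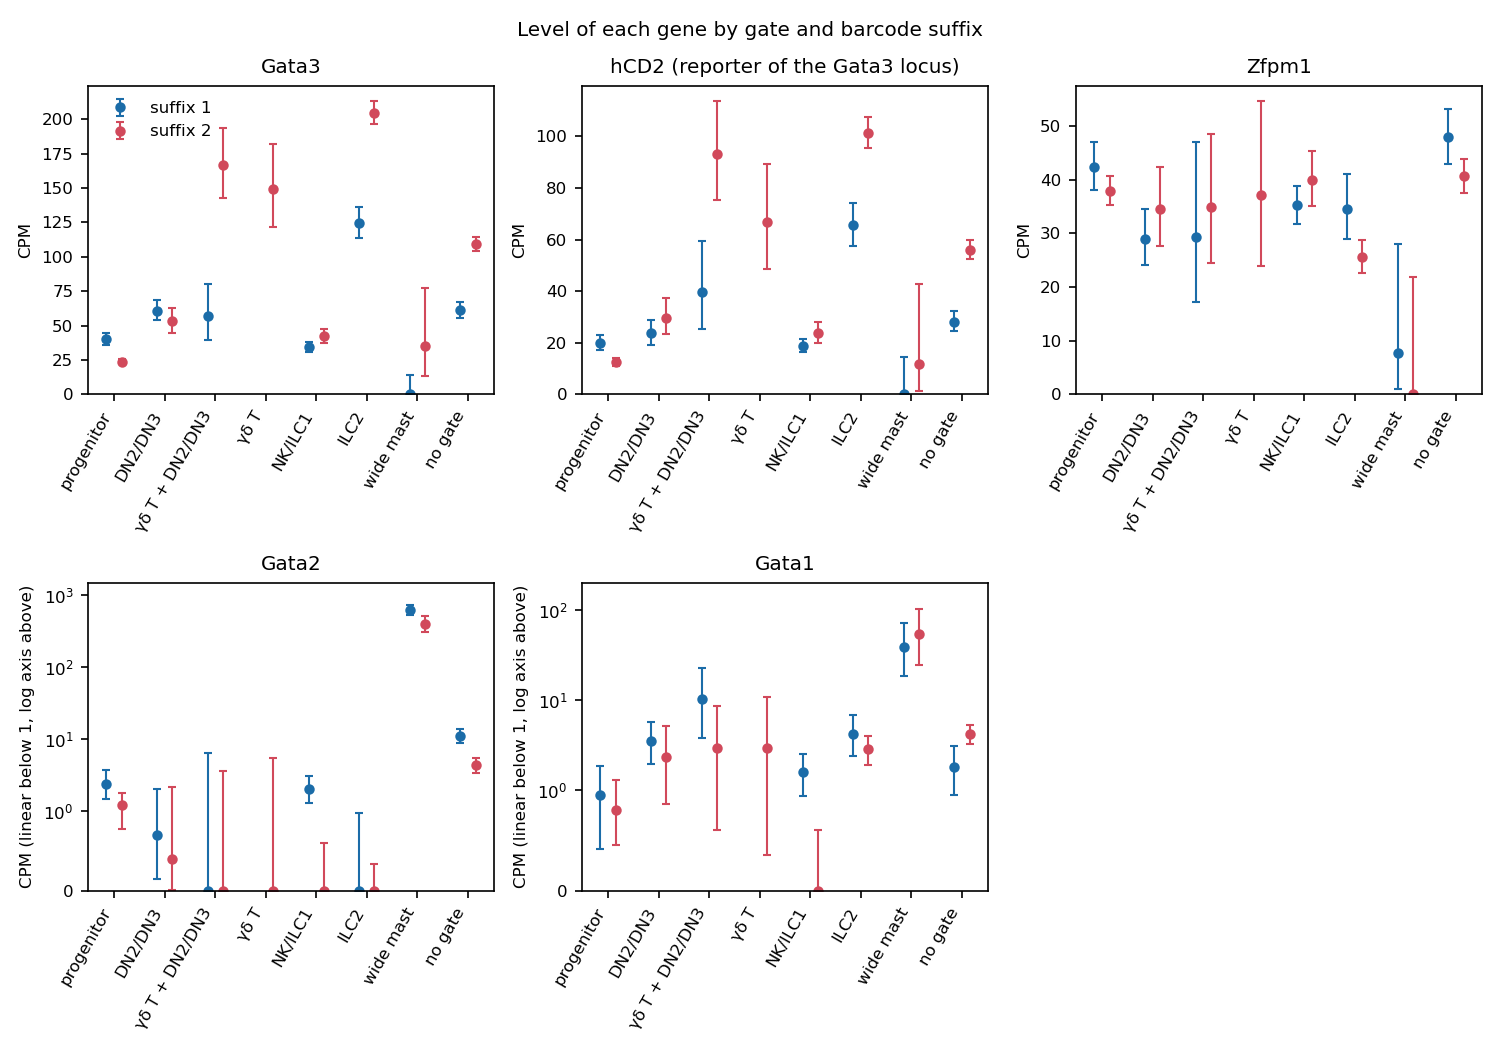
CPM of Gata3, its reporter row hCD2, Zfpm1, Gata2 and Gata1 (vertical axes, linear for the first 3 genes, log above 1 for the last 2) by gate and barcode suffix, for groups of at least 15 barcodes, with exact Poisson 95% intervals for counting error. Gata3 and hCD2 are highest in the ILC2 and gamma-delta T gates, Gata2 and Gata1 in the wide mast gate, and Zfpm1 differs little except in the wide mast gate.

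At equal depth the order of Gata3 was kept. After thinning, Gata3 was detected in 54.3% of ILC2 barcodes (51.1 to 57.5%), in 46.7% of gamma-delta T barcodes (31.7 to 62.1%) and in 23.0% of DN2/DN3 barcodes (17.3 to 29.5%). The shares were 17.3% in the NK/ILC1 gate (15.3 to 19.4%) and 13.1% in the progenitor gate (10.9 to 15.6%), and 3.03% in the wide mast gate (1 of 33 barcodes). Without thinning they were 82.0% in the ILC2 and 50.7% in the deeper progenitor gate. Thinned ILC2 barcodes held 0 to 8 Gata3 UMIs with a median of 1, and thinned progenitor barcodes 0 to 4 with a median of 0. The ranges of single barcodes overlap between the gates. At least 3 Gata3 UMIs were found in 9.34% of ILC2 and 0.12% of progenitor barcodes.

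**Figure D2:**
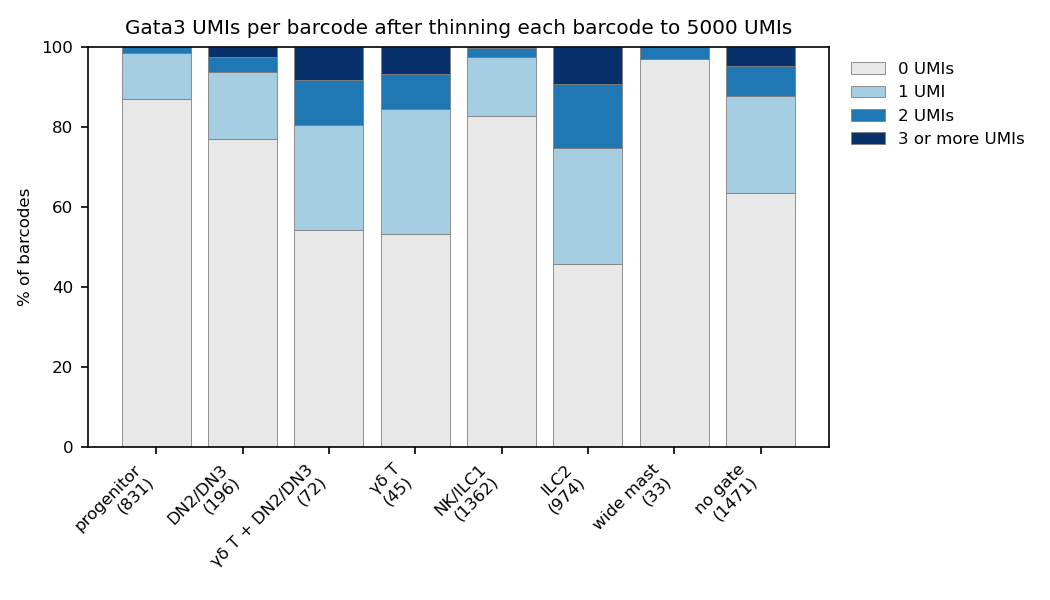
Share of barcodes (vertical axis, %) with 0, 1, 2 or at least 3 Gata3 UMIs after each barcode was thinned to 5000 UMIs, by gate, with the number of barcodes in parentheses. In the ILC2 gate 45.7% of barcodes had 0 Gata3 UMIs, against 86.9% in the progenitor gate.

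ILC2 barcodes were set against progenitors to ask how the GATA genes differ between an innate lymphoid type and uncommitted cells. Gata3 had a log2 ratio of 2.69 (2.58 to 2.81), 6.45-fold, with 1.64 (1.44 to 1.85) within suffix 1 and 3.11 (2.97 to 3.25) within suffix 2. Gata1, seen in few barcodes, was 3.77-fold higher (2.26 to 6.45; 4.42-fold in suffix 1 and 3.54-fold in suffix 2), with 47 UMIs in 42 of 985 ILC2 barcodes against 24 UMIs in 19 of 832 progenitors. Gata2 had 0 UMIs in ILC2 barcodes against 44 in 41 progenitors, and setting the 0 at 3 counts made it at least 7.62-fold lower (3.01-fold within suffix 1 and 4.38-fold within suffix 2). Zfpm1 was 1.41-fold lower (1.25 to 1.58). So 2 of 4 members were at least 2-fold higher, against 13.5% of 11641 tested genes, and 1 was at least 2-fold lower, against 16.9%. Before doublets were removed the ILC2 gate had 6 Gata2 UMIs, in 2 barcodes that Scrublet called doublets. The 5 such doublets of the gate also held the mast cell protease genes Cpa3 and Cma1, at 719 and 505 CPM.

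Genes linked to GATA3 in type 2 and T-lineage cells were read from lists chosen with earlier results of these data known. The type 2 list holds all 7 ILC2 markers used to check the ILC2 gate, so its counts with that gate partly repeat that check. In ILC2 over progenitor barcodes 13 of 15 tested type 2 genes were at least 2-fold higher and 1 lower. The shares of all tested genes were 13.5% and 16.9%. The median log2 ratio of the list was 4.21 against -0.12 over all tested genes. Il7r, the interleukin 7 receptor, had 571 against 26.0 CPM and Lmo4, a LIM-domain adaptor, 631 against 38.4 CPM. Il2ra, a chain of the interleukin 2 receptor, had 79.2 against 65.4 CPM, and Hes1, a Notch target, was the gene that was lower, with 44.4 against 108 CPM. Of 14 T-lineage genes 7 were higher and 7 lower, against the same shares of all tested genes, so that list was split. Il7r is in both lists. Ets1, a transcription factor, had 227 against 9.91 CPM, while Tcf7 (TCF-1) had 59.99 against 171 CPM and the kinase gene Lck 63.0 against 153 CPM. Of 13 genes of the PU.1-side myeloid and progenitor list 11 were lower and 0 higher, against 16.9% and 13.5% of all tested genes. Mpo, myeloperoxidase, had 0.34 against 175 CPM and Mef2c 0.883 against 149 CPM. Prtn3 had 0.204 against 75.0 CPM, and Fcgr3, an Fc receptor, 6.32 against 10.97 CPM. That list was read against a gate set by Spi1, the gene of PU.1. It also shares genes, Mef2c among them, with the markers that checked the progenitor gate, so its count partly repeats that check.

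NK/ILC1 barcodes had 4.97-fold less Gata3 than ILC2 barcodes (4.56 to 5.42), with a log2 ratio of -2.31 (-1.86 within suffix 1 and -2.29 within suffix 2). Gata1 was 3.09-fold lower (1.76 to 5.65), so 2 of 4 members were at least 2-fold lower, against 10.2% of 11121 tested genes. Zfpm1 was 1.32-fold higher (1.17 to 1.501), with a log2 ratio of 0.03 within suffix 1 and 0.64 within suffix 2, so that difference rests on suffix 2. Gata2 had 23 UMIs in the NK/ILC1 gate and was at least 6.49-fold higher (2.58-fold within suffix 1, with 0 in both gates of suffix 2), 1 of 4 members against 7.83% of tested genes. All of its 23 barcodes were of suffix 1, and of 495 NK/ILC1 barcodes of suffix 2 there were 0. Of 15 type 2 genes 13 were at least 2-fold lower and 0 higher, against 10.2% and 7.83% of all tested genes. Il7r had 110 CPM and Lmo4 48.6 CPM in the NK/ILC1 gate. Against progenitors Gata3 had a log2 ratio of 0.38 in NK/ILC1 barcodes (0.23 to 0.53), a value which was -0.22 in suffix 1 alone and 0.82 in suffix 2 alone, opposite in sign.

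DN2/DN3 barcodes, named for the step at which T cell commitment occurs, had 2.03-fold more Gata3 than progenitors (1.80 to 2.30). The log2 ratio was 1.02, with 0.61 within suffix 1 and 1.16 within suffix 2. Suffix 2 of this gate also held Cd8b1 at 198 CPM, and the part of such barcodes in the ratio was not tested. Gata1 was 3.61-fold higher (1.91 to 6.77), with 21 UMIs in 18 of 205 barcodes. Counting both, 2 of 4 members were at least 2-fold higher, against 4.28% of 11242 tested genes. Zfpm1 was 1.26-fold lower (1.09 to 1.47). Gata2, with 4 UMIs in DN2/DN3 barcodes, had a log2 ratio of -1.42 (-3.35 to 0.04). It was the 1 member past 2-fold lower by its point value, against 8.2% of tested genes, and its interval reached no difference. Of 13 T-lineage genes 9 were at least 2-fold higher and 0 lower, against 4.28% and 8.2% of all tested genes. That list shares genes with the markers that checked the DN2/DN3 gate, so its count partly repeats that check. Tcf7 had 395 against 171 CPM and Ets1 80.5 against 9.91 CPM. Lck had 288 against 153 CPM, under 2-fold. Of 12 type 2 genes 7 were higher and 0 lower, against the same shares of all tested genes. Il2ra was among those higher, with 157 against 65.4 CPM.

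Gamma-delta T barcodes had 2.46-fold more Gata3 than DN2/DN3 barcodes (1.96 to 3.06), the 1 member of 4 past 2-fold higher, against 10.8% of tested genes. Suffix 1 held 2 gamma-delta T barcodes, so this rests on 43 barcodes of suffix 2, where Gata3 had 150 CPM. The 72 barcodes that passed both gates had a log2 ratio of 1.13 over DN2/DN3 barcodes (0.88 to 1.38), and again 1 of 4 members was past 2-fold, against 6.2% of tested genes. Within suffix 1 that ratio was -0.10 (-0.67 to 0.43) and within suffix 2 it was 1.65 (1.32 to 1.99). The barcodes of both gates had a median of 42315 UMIs in suffix 1 (15 barcodes) and 15731 in suffix 2 (57 barcodes). Their gamma-delta T markers other than gate genes summed to 511 and 1263 CPM. The part of depth or of cell make-up in the Gata3 difference was not tested. Compared with ILC2 barcodes, gamma-delta T barcodes had a Gata3 log2 ratio of -0.37 (-0.66 to -0.08). Of 15 type 2 genes, 10 were at least 2-fold lower in gamma-delta T than in ILC2 barcodes and 0 were higher, against 9.15% and 7.9% of all tested genes.

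Gata3 differed between the suffixes in opposite directions by gate. In the ILC2 gate it was 125 CPM in suffix 1 and 205 CPM in suffix 2, 1.65-fold higher in suffix 2 (1.49 to 1.82). In the progenitor gate it was 39.9 CPM in suffix 1 and 23.8 CPM in suffix 2, 1.68-fold lower in suffix 2. The barcodes that passed both T cell gates had 56.98 and 167 CPM. DN2/DN3 barcodes had 60.9 and 53.2 CPM, and their intervals overlapped. The reporter row hCD2 had 65.6 and 101 CPM in the ILC2 gate and 19.9 and 12.5 CPM in the progenitor gate, the same directions as Gata3. Among these groups the suffix ratio passed 2-fold in the barcodes of both T cell gates (2.93-fold, 2.01 to 4.39), where 13.3% of tested genes were at least 2-fold higher in suffix 2. Depth and gamma-delta T markers of these barcodes also differed between the suffixes, as given above. No label says what a suffix stands for, so a library difference and a stage difference cannot be told apart.

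The hCD2 row followed Gata3 from gate to gate. It had 0.500 UMIs per Gata3 UMI in ILC2 barcodes (0.468 to 0.534), 0.515 in progenitors (0.457 to 0.581), 0.555 in NK/ILC1 barcodes (0.486 to 0.633) and 0.446 in DN2/DN3 barcodes (0.372 to 0.534). These intervals overlap, but the gates were not set against each other, so whether reporter per Gata3 transcript differs was not tested. By suffix, DN2/DN3 barcodes had 0.388 (0.305 to 0.489) in suffix 1 and 0.559 (0.416 to 0.745) in suffix 2. ILC2 barcodes had 0.526 (0.450 to 0.615) and 0.495 (0.460 to 0.532). Within the ILC2 gate single barcodes were less regular. Of thinned ILC2 barcodes with a Gata3 UMI 40.5% had a hCD2 UMI, against 26.1% of those without.

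Gata2 was rare, with 461 UMIs in 161 barcodes (2.97%), and 227 of these UMIs lay in the 40 barcodes of the wide mast gate. Its level there was 532 CPM (465 to 606), with a UMI in 37 of 40 barcodes. The 3 barcodes of the mast gate had 128 CPM from 7 UMIs (51.5 to 264). Progenitors had 1.55 CPM (1.13 to 2.08), NK/ILC1 barcodes 1.32 CPM (0.838 to 1.98) and DN2/DN3 barcodes 0.582 CPM. There were 0 UMIs in the ILC2 gate, in the gamma-delta T gate and in the barcodes of both T cell gates. After thinning, 0 of 974 ILC2 barcodes held a UMI, which allows a share of barcodes with a UMI at that depth of up to 0.308% when the 0 is set at 3 counts (Clopper-Pearson upper bound 0.378%), against 0.842% of progenitors (0.339 to 1.73%) and 87.9% of the wide mast gate (71.8 to 96.6%). Gata2 had 617 CPM in wide mast barcodes of suffix 1 and 402 CPM in those of suffix 2.

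Mast cell and basophil barcodes were compared with progenitors because GATA1, GATA2 and FOG-1 are known to act together at that branch. In the wide mast gate Gata2 was 342-fold higher (247 to 484) and Gata1 52.6-fold higher (27.2 to 100), so 2 of 4 members were at least 2-fold higher, against 15.9% of 9928 tested genes. Both held in each suffix, with Gata2 at 259-fold in suffix 1 and 334-fold in suffix 2. Zfpm1 went the other way, with 2 UMIs, both in 1 of 40 barcodes, and 8.36-fold less than in progenitors (2.31 to 69.1). Within suffix 1 it was 5.45-fold lower (1.497 to 45.1), and within suffix 2, with 0 UMIs, at least 2.14-fold lower. Gata3 had an inverse ratio of 2.03 with an interval of 0.929 to 5.55, so 2 of 4 members were past 2-fold lower by their point values, against 18.9% of tested genes, and the interval of Gata3 reached no difference. Within suffix 1 Gata3 had 0 UMIs and was at least 3.43-fold lower, and within suffix 2 its ratio was 1.49 (0.545 to 3.27), so it is given no direction. Mast cell and basophil genes were higher in 17 of 17 tested cases, against 15.9% of all tested genes. That list holds all 6 mast or basophil markers used to check the wide mast gate, so its count partly repeats that check. Cpa3, a carboxypeptidase, had 4350 against 202 CPM, and Cma1, a chymase, 4472 against 0.353 CPM. Kit, the stem cell factor receptor, had 180 against 84.0 CPM and Srgn, the granule proteoglycan, 3659 against 702 CPM.

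**Figure D3:**
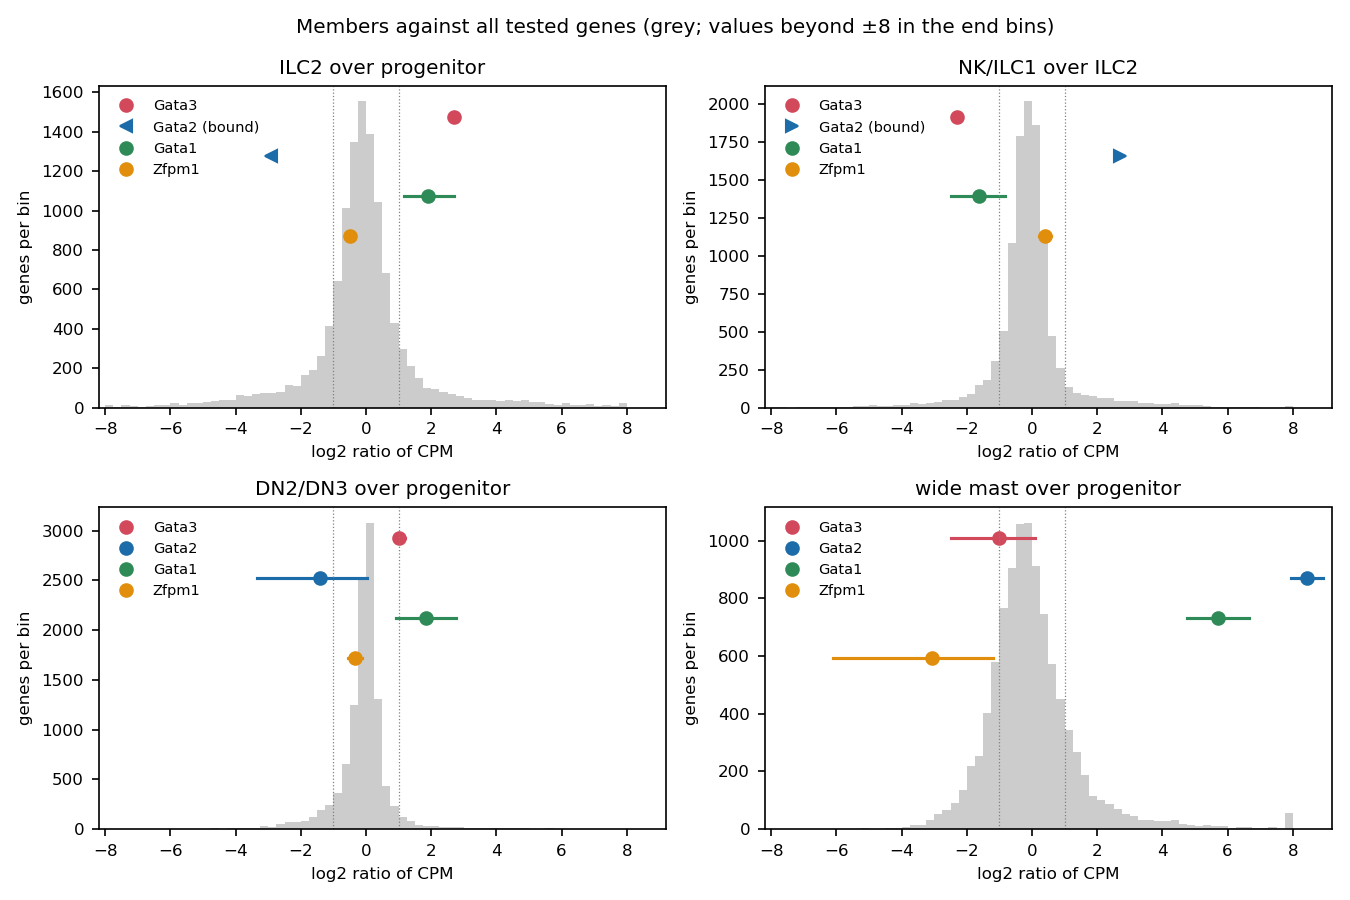
Histograms of log2 CPM ratios over all tested genes (grey, genes per bin of 0.25) for 4 pairs of gates, with the members as coloured points at arbitrary heights, lines for 95% intervals of counting error and triangles for bounds from a count of 0. Dotted lines mark 2-fold. Gata3 lies at 2.69 in ILC2 over progenitor, and Gata2 at 8.42 and Zfpm1 at -3.06 in wide mast over progenitor.

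The wide mast gate held cells of more than 1 kind, split here after their values were seen. In 12 barcodes Mcpt8, a basophil protease gene, exceeded the mast cell proteases Cma1, Mcpt4 and Tpsb2 summed, and in 13 the mast cell proteases exceeded Mcpt8. Gata2 had 599 CPM in the first (488 to 727, in 12 of 12 barcodes) and 449 CPM in the second (346 to 572, in 10 of 13), a log2 ratio of 0.42 (-0.05 to 0.89). Gata1 had 29.6 CPM from 5 UMIs and 62.1 CPM from 9 UMIs, with a log2 ratio of -1.07 (-2.99 to 0.66). Neither gene could be separated between them at this depth. Zfpm1 had 2 UMIs in the Mcpt8 barcodes and 0 in those of the mast cell proteases, and Gata3 had 0 in both. The remaining 15 barcodes had Gata2 at 538 CPM, in 15 of 15.

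Ungated barcodes with Gata2 held transcripts of some mast cell genes. Summed, they also held UMIs of Klf1, a red cell transcription factor. In 46 ungated barcodes that held a Gata2 UMI, Cpa3 had 1550 CPM and Hdc, the histamine-forming enzyme, 464 CPM, against 126 and 3.84 CPM in the other 1616. Both were higher in each suffix, with Cpa3 at 1272 against 182 CPM in suffix 1 and at 1679 against 101 CPM in suffix 2. Cpa3 was also found in the progenitor gate (202 CPM) and the DN2/DN3 gate (284 CPM). Ms4a2 and Mcpt8 had 4 UMIs each in the 46 barcodes. Klf1 had 36.1 against 2.19 CPM there (27 UMIs) and Zfpm1 86.9 against 41.4 CPM. All kept barcodes with at least 2 Klf1 UMIs together held 1 Gata2 UMI. At most 1 of the 46 barcodes can thus have held more than 1 Klf1 UMI, so Klf1 is not shown as a shared trait. By suffix, Zfpm1 had 46.6 against 47.9 CPM (suffix 1) and 105 against 38.4 CPM (suffix 2). In suffix 2, 1 ungated barcode held 29 Zfpm1 UMIs, and whether it is among the 46 was not checked. In progenitors with Gata2, set against those without, Cpa3 had 253 against 252 CPM within suffix 1 (18 barcodes with Gata2) and 274 against 177 CPM within suffix 2 (23 barcodes). Their Gata3 level was 35.9 against 40.2 CPM within suffix 1 and 27.5 against 23.6 CPM within suffix 2. The 23 NK/ILC1 barcodes with Gata2, all of suffix 1, were set against the other 864 of that suffix. Cpa3 had 136 against 75.7 CPM, Mcpt8 37.9 against 9.11 CPM (12 UMIs) and the epithelial keratin gene Krt8 25.3 against 14.9 CPM (8 UMIs). Over the whole NK/ILC1 gate the level of Krt8 was 15.1 CPM (suffix 1) and 0.655 CPM (suffix 2), that of the keratin gene Krt18 28.3 and 1.31 CPM, and that of Cpa3 77.4 and 1.15 CPM. All thymic epithelium genes together summed to 82.3 CPM in suffix 1 and 59.2 CPM in suffix 2 of that gate. The part of such transcripts in the Gata2 count of the NK/ILC1 gate was not tested.

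Gata1 had 237 UMIs in 178 barcodes (3.29%). Its level was 44.5 CPM in the wide mast gate (26.8 to 69.5, in 13 of 40 barcodes). It was 5.59 CPM in the barcodes of both T cell gates (2.56 to 10.6), with 10.4 CPM in suffix 1 (6 UMIs in 5 of 15 barcodes) and 2.91 CPM in suffix 2 (3 UMIs in 2 of 57). It was 3.19 CPM in the ILC2 gate (2.35 to 4.25) and 3.06 CPM in the DN2/DN3 gate (1.89 to 4.67). NK/ILC1 barcodes had 1.03 CPM and progenitors 0.847 CPM (0.543 to 1.26). The interval of the wide mast gate lay above those of the other groups named here. Below it no neighbours in the order could be separated, but the ILC2 and DN2/DN3 gates were both above progenitors as given above. The ILC2 values were 4.21 CPM in suffix 1 and 2.84 CPM in suffix 2. All 18 Gata1 UMIs of the NK/ILC1 gate lay in suffix 1, with 0 in suffix 2. ILC2 barcodes with Gata1 had 146 CPM of Gata3 against 122 CPM in those without (suffix 1), and 226 against 204 CPM (suffix 2). Their Cpa3 level was 32.2 against 13.9 CPM in suffix 1 and 15.96 against 1.99 CPM in suffix 2, from 11 and 6 UMIs.

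A set of 6 barcodes with at least 2 UMIs of Klf1, a red cell transcription factor, carried a different GATA pattern, and was described after its values were seen. All were of suffix 2, 5 without a gate and 1 in the progenitor gate, with a median of 58528.5 UMIs. They held 38 Gata1 UMIs, 0 to 11 in a barcode, or 101.8 CPM (72.0 to 140), against 2.02 CPM in the other 5406 kept barcodes, 50.4-fold higher (34.7 to 71.7). Zfpm1 had 217 CPM (172 to 270) against 36.3 CPM, 5.97-fold higher (4.73 to 7.45). Gata2 had 1 UMI and Gata3 had 0. Epor, the erythropoietin receptor, had 113 CPM and Gfi1b, a GATA1 partner, 64.3 CPM. Ms4a2, Fcer1a, Hdc and Mcpt8 had 0 UMIs in these barcodes. The Gata2 ratio to the other kept barcodes was -0.80 on the log2 scale (-6.11 to 1.69), so no difference in Gata2 is shown there. Thus high Gata1 was found with high Zfpm1 in the Klf1 barcodes, and with high Gata2 and 2 Zfpm1 UMIs in the wide mast gate. The Klf1 barcodes are few and of 1 suffix, and their median depth was above that of 14068 UMIs in the other barcodes. The part of depth or of doublets in them was not tested, and Scrublet did not call them.

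**Figure D4:**
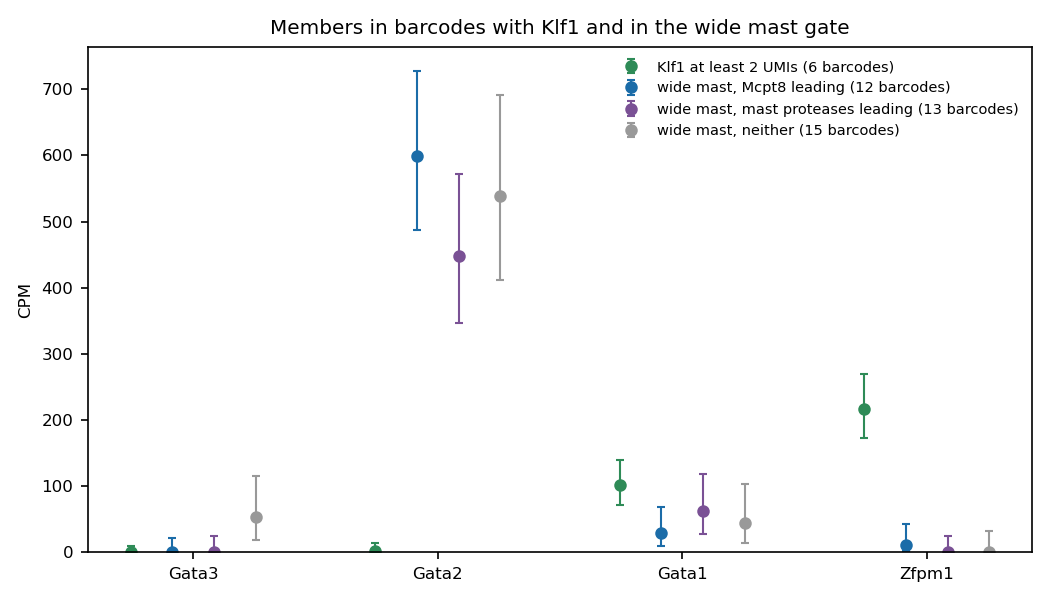
CPM of the 4 members (vertical axis) in the 6 barcodes with at least 2 Klf1 UMIs and in the 3 sets of the wide mast gate, with exact Poisson 95% intervals for counting error. Zfpm1 reaches 217 CPM in the Klf1 barcodes and at most 11.9 CPM in the wide mast sets, while Gata2 reaches 449 to 599 CPM in the wide mast sets and 2.68 CPM in the Klf1 barcodes.

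Zfpm1 was widely detected, with 3663 UMIs in 2090 barcodes (38.6%), and its level varied little. It was 41.6 CPM in the gamma-delta T gate (28.1 to 59.4), 39.2 CPM in progenitors (36.9 to 41.5), 36.8 CPM in NK/ILC1 barcodes (34.0 to 39.8) and 31.0 CPM in DN2/DN3 barcodes (27.0 to 35.4). The ILC2 gate, with the most Gata3, had the lowest pooled level of these gates, 27.9 CPM (25.2 to 30.7), though within suffix 1 the DN2/DN3 gate was lower, at 28.96 CPM against 34.5 CPM. From the ungated barcodes at 42.9 CPM down to the ILC2 gate no neighbours in the order could be separated. The wide mast gate lay below, with 4.68 CPM (0.567 to 16.9). By suffix, the ILC2 level was 34.5 CPM (suffix 1) and 25.5 CPM (suffix 2). The ILC2 over progenitor log2 ratio of -0.49 (-0.66 to -0.33) was -0.29 within suffix 1 and -0.57 within suffix 2.

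Members were also counted together in single barcodes. Gata2 and Gata1 were both found in 23 kept barcodes, where the product of their shares gives 5.30, and 11 of these lay in the wide mast gate. Within that gate the product gives 12.03. In the ungated barcodes both were found in 10, where the product gives 1.27, and after thinning in 2 against 0.245. Gata3 and Gata2 were both found in 46 barcodes against 87.8. Gata3 and Zfpm1 were both found in 1209 barcodes against 1140, but after thinning in 210 against 238, so the direction depends on depth. After thinning Gata2 and Gata1 were both found in 8 against 0.778 and Gata3 and Gata2 in 3 against 19.9. Such counts mix cell types and depths and are given as a description.

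Of 5 other GATA and FOG genes 1 was well detected. Gata4, Gata5 and Zfpm2 had 0 UMIs in kept barcodes and Gata6 had 1. Trps1, an atypical GATA repressor, had 2714 UMIs, with 50.8 CPM in ILC2 barcodes, 19.9 CPM in progenitors and 15.52 CPM in NK/ILC1 barcodes.

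Of 17 DNA-binding partners of GATA factors, 10 were at least 2-fold lower and 3 higher in ILC2 than in progenitor barcodes, against 16.9% and 13.5% of all tested genes, with a median log2 ratio of -1.48. Lmo4 was among those higher. The partner list shares genes with the markers that checked the progenitor gate, so its count partly repeats that check. Runx1 had 71.3 against 199 CPM and the E protein gene Tcf3 36.9 against 92.7 CPM, while Ikzf1 (Ikaros) had 90.7 against 84.1 CPM. In DN2/DN3 over progenitor barcodes 2 were higher and 4 lower, against 4.28% and 8.2% of all tested genes, and in the wide mast gate 3 were higher and 8 lower, against 15.9% and 18.9%. Runx1 had 401 CPM in the wide mast gate. FOG-1 acts through NuRD and CtBP corepressors, of which 14 genes were tested. In ILC2 over progenitor barcodes 1 was higher and 3 lower, against 13.5% and 16.9% of all tested genes. In DN2/DN3 over progenitor barcodes 0 were higher and 0 lower, and in NK/ILC1 over ILC2 0 and 1 (7.83% and 10.2% of all tested genes). Rbbp4, a histone-binding subunit, had 211 CPM in ILC2 and 272 CPM in progenitor barcodes, Rbbp7 263 and 219 CPM, the remodeller gene Chd4 210 and 238 CPM, and Mbd3 125 and 164 CPM. In wide mast over progenitor barcodes 5 of the 14 were lower and 0 higher, against 18.9% and 15.9% of all tested genes.

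Of 18 red cell and megakaryocyte genes, 11 could be tested in ILC2 over progenitor barcodes, with 4 higher and 7 lower, against 13.5% and 16.9% of all tested genes. The haemoglobin gene Hbb-bt had 3.53 against 606 CPM, while Hbb-bs had 133 against 2.36 CPM. Car2, a carbonic anhydrase, had 5.84 against 45.3 CPM and Nfe2 0.679 against 60.7 CPM. All 1951 Hbb-bs UMIs of the ILC2 gate lay in suffix 2, whose barcodes that failed the filters held this gene at 40561 CPM. The part of free RNA in them was not tested. Of 18 mast cell and basophil genes 11 could be tested in ILC2 over progenitor barcodes, with 3 higher and 4 lower, against the same shares of all tested genes. Kit had 81.7 against 84.0 CPM there and Cpa3 5.84 against 202 CPM.

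**Figure D5:**
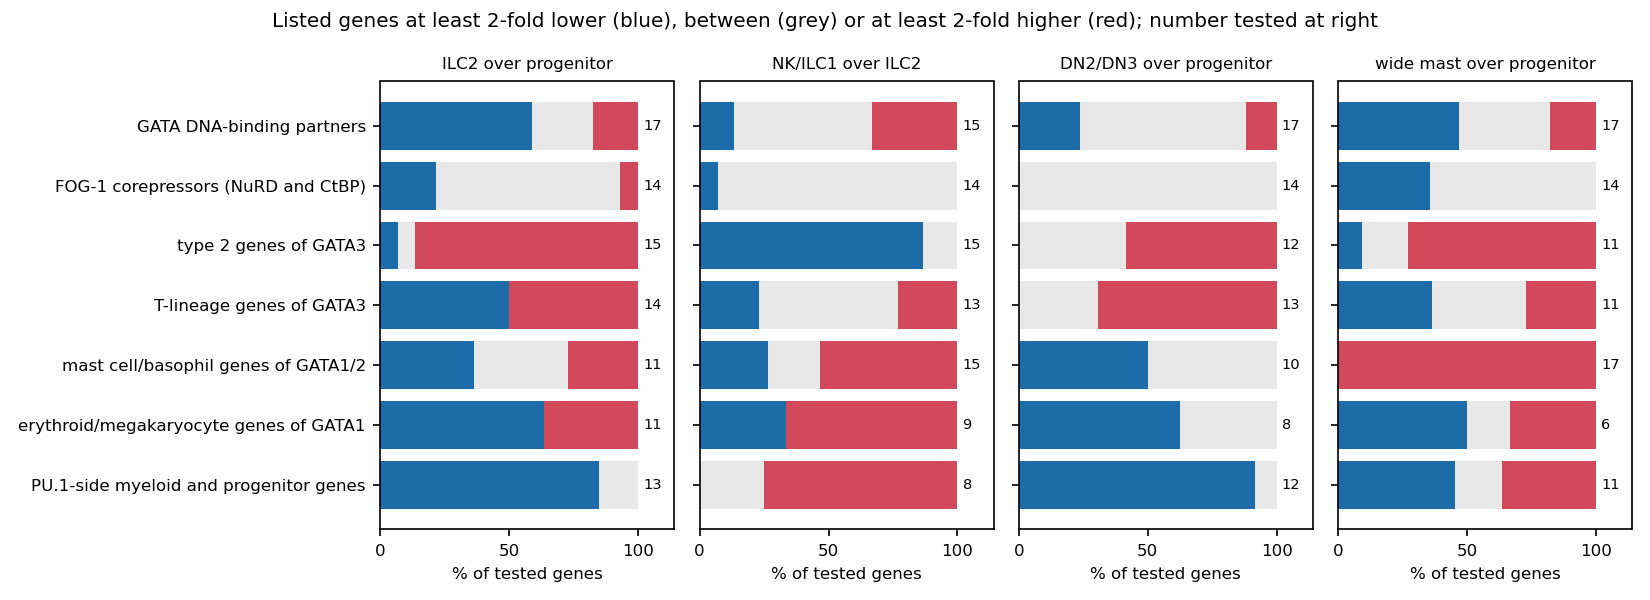
Share of tested genes of 7 lists (horizontal axis, %) at least 2-fold lower (blue), between (grey) or at least 2-fold higher (red) in 4 pairs of gates, with the number tested at the right of each bar. Type 2 genes are mostly higher in ILC2 over progenitor (13 of 15) and lower in NK/ILC1 over ILC2 (13 of 15), and mast cell and basophil genes are higher in wide mast over progenitor (17 of 17). The type 2, T-lineage, mast cell, DNA-binding partner and PU.1-side lists share genes with the markers that checked the gates.

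Genes of the most similar pattern were ranked by Pearson correlation of log2(CPM + 1) over 9 gate and suffix groups, which share 2 suffixes. For Gata3 these were hCD2 (0.99), Tasp1 (0.96), Actn2 (0.94), Xlr4a (0.94) and Ptpn13 (0.94). For Gata2 they were Prtn3, Vamp8, Cox4i2, Ninj1 and Hbb-bt (0.93 to 0.90). For Gata1 they were Pkm, Bbip1, Ssna1, 1500009L16Rik and Hist1h2bj (0.95 to 0.89), and for Zfpm1 Cst7, Mob2, Cbfa2t3, Cxxc5 and Oxct1 (0.86 to 0.77). Over these 9 groups Gata2 reached at most 2.38 CPM and Gata1 at most 4.21 CPM, so their ranks rest on few UMIs. With the wide mast gate as a further group, hCD2 still led for Gata3 (0.98). Gata2, at 532 CPM in that 1 group, was then led by Pirb (0.99), Cyp4f18, Ccl6, Rnase12 and Adgre1. Ranks over so few groups are a description of these barcodes.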

How the data were processed

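Sorted cells went through a lysis described as giving nuclei, then a 10x 3' v3 library, per the labels' protocols. Cells or nuclei is thus unresolved. The values the authors deposited are UMI counts, whole numbers for each gene in each barcode, from Cell Ranger 3.0.2 with STAR (build GRCm38), per the submitters' processing notes. How cells were called, which annotation was used and whether counting was stranded is not given in the sources used here. T-cell receptor genes were not analysed here.

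Filters took out barcodes under 500 genes or above 10% mitochondrial UMIs: 35 carried suffix 1 and 507 suffix 2. Scrublet (scanpy 1.11.5, per suffix) then took out 10 doublets in suffix 1 (0.466%) and 93 in suffix 2 (2.76%). With so few calls in suffix 1, some doublets may remain in it. Gates use raw UMIs and so favour deep barcodes.

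UMIs were summed per gate. A gene was tested with at least 20 UMIs over both gates, and called at 2-fold. A count of 0 was set at 3 counts, and a gene left out where that gave no bound. The members, gates and lists were chosen with earlier results of these data known, and the wide mast gate and the Klf1 and protease sets after their values were seen. The genes named are the 4 members, hCD2, the 4 list genes with most UMIs and the 5 most correlated genes (at least 50 CPM in 1 group of at least 20 barcodes). Other genes named (Mcpt8, Mcpt4, Tpsb2, Hdc, Ms4a2, Fcer1a, Krt8, Krt18, Cd8b1, Il1rl1, Klf1, Epor, Gfi1b) fall outside that rule and were chosen after their values were seen. On simulated counts for the ILC2 and progenitor gates (11640 genes, 200 with a set change), 95.6% of the ratio intervals covered the truth. Those counts were drawn as Poisson, the model the interval assumes. The simulation thus checks the computation and says nothing on spread between barcodes or libraries. Alternatives covered gate minimums, thinned gates, filters, doublets, scaling and single suffixes. Software was Python 3.11.15 with numpy 2.4.6, scipy 1.17.1.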

Additional observations from a re-analysis of the deposited data

Results flagged for a closer look

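Signal of members appeared in the 507 barcodes of suffix 2 that failed the filters and enter no comparison. Gata3 had 153.77 CPM there (130 to 180, 154 UMIs) and Zfpm1 32.95 CPM (22.7 to 46.3, 33 UMIs), above the limit that a count of 0 allows, 3.00 CPM. Gata2 had 0 UMIs and Gata1 had 1. These barcodes also held Hbb-bs at 40561 CPM, Icos at 514 CPM and Il1rl1, the interleukin 33 receptor, at 371 CPM. The part of free RNA or of damaged cells in these values was not tested.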

How the results depend on the processing

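For the 6 main ratios 64 values under alternatives moved less than the counting interval of the main value allows and 12 moved more, and 0 of them changed direction. Of levels 235 stayed within and 41 moved beyond that interval, and of shares of barcodes 17 stayed and 31 moved, all under other thinning depths or none. The wide mast gates and leaving out shared barcode sequences were chosen after seeing the data. The Gata3 ILC2 over progenitor log2 ratio of 2.69 became 2.45 with barcodes kept in every gate they pass, 2.83 with gates on thinned UMIs, 1.64 in suffix 1 and 3.11 in suffix 2. Gata3 in NK/ILC1 over ILC2 was -1.86 in suffix 1 against -2.31. Gata3 in DN2/DN3 over progenitor was 1.29 with gates on thinned UMIs and 0.61 in suffix 1 against 1.02. Zfpm1 in ILC2 over progenitor was -0.29 in suffix 1 against -0.49. Gata2 in the 3 mast barcodes over progenitors was 6.37 (4.97 to 7.53), and 4.97 in suffix 1, 7.84 in suffix 2, 8.42 with the wide mast gate, and 8.36 with a wide gate of at least 1 or of at least 4 summed UMIs. Gata1 in the 3 mast barcodes rests on 1 UMI, with 4.43 (-0.93 to 7.05), and gave no value in suffix 2 or with at least 3 UMIs of each gate gene. The causes of these shifts were not tested. Each suffix holds fewer barcodes than the pool, and that was not tested as a cause either. Depth limits Gata1 and Gata2, of which few barcodes outside the wide mast gate hold over 1 UMI. Within that gate Gata2 had a mean of 5.675 UMIs per barcode. Median of ratios scaling (6075 genes) gave 2.80 for Gata3 and -0.38 for Zfpm1 in ILC2 over progenitor. No paired analysis was possible because the table holds 1 pooled sample without replicates.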
